A study of Homo sapiens with 6 samples.

Results

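A set of 8 genes of intestinal identity was followed in HCT116, a human cell line from a colorectal carcinoma: the transcription factor genes HNF4A, HNF4G, CDX1 and CDX2, the adhesion molecule genes CEACAM1, CEACAM5 and CEACAM6, and the villin gene VIL1. The genes were chosen by name and by function, and each of the 8 members matched 1 of the 58735 gene IDs in the deposited table through GENCODE release 29 (GRCh38). RNA sequencing compared 3 libraries of cells that carried an empty vector, labelled wild type, with 3 libraries overexpressing SETD8, an enzyme that methylates histone lysine and whose gene symbol is now KMT5A. Per the labels, constructs were delivered by lentivirus and puromycin-resistant stable clones were selected, whereas the design text speaks of transfection. How many clones a library holds is not stated, nor whether replicates were grown separately, so each p-value measures the spread of these samples alone, and that spread may be technical. The series title concerns methylation and loss of the coactivator YAP by SETD8, and here the question was how transcripts of the 8 genes differ with SETD8.

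HNF4A and its paralog HNF4G encode nuclear receptors that bind DNA as dimers and drive enterocyte and hepatocyte genes. CDX1 and CDX2 encode caudal-type homeobox factors that set hindgut identity, and CDX2 is used in pathology as a marker of intestinal origin. CEACAM1, CEACAM5 and CEACAM6 encode immunoglobulin-family adhesion molecules of the cell surface. CEACAM1 spans the membrane and carries an inhibitory signalling tail, while CEACAM5, the carcinoembryonic antigen measured in the serum of patients with colorectal cancer, and CEACAM6 are held by a lipid anchor. Villin, the product of VIL1, bundles and severs actin in the microvilli of the brush border.

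Libraries held 17056672 to 20471843 counted reads. Levels are given as CPM, reads scaled to a common library size by the TMM method, and 3 counts correspond to 0.15 to 0.174 CPM, depending on the library. KMT5A was higher in every SETD8 library (65.4 to 75.5 CPM) than in any vector library (46.0 to 53.9 CPM), with an edgeR adjusted p of 0.0156 and a log2 fold change of 0.49 (SE 0.10). Vector replicate 1 stood between the groups on the first principal component (-0.939, against 25.7 and 39.3 for vector replicates 2 and 3 and -23.8 to -16.5 for the SETD8 libraries). On that component it was nearer to each SETD8 library than to either other vector library. Results of the members that rest on 1 library are given with and without it.

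HCT116 cells transcribed 3 of the 8 genes at levels that could be tested, and of these CEACAM1 and HNF4A were lower with SETD8 while CDX2 did not pass the test. CEACAM1 fell 2.43-fold and HNF4A fell 1.48-fold. HNF4G was near the detection limit, VIL1 and CEACAM5 were at or below a few reads a library, and CDX1 and CEACAM6 had no read at all. Of the 3 members tested, 2 were called lower and 0 higher, where a call is a Benjamini-Hochberg adjusted p below 0.05 in edgeR's quasi-likelihood test. Over all 14370 genes tested, 7.83% were called, 4.75% lower and 3.08% higher. The low-count filter asks for enough counts in as many libraries as 1 group holds. The 3 members that passed it had at least 46 counts in every library, so they did not pass through 1 group alone. The other 5 have no test. In bulk RNA, fewer cells that express a gene cannot be told apart from less RNA of it per cell.

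**Figure D1:**
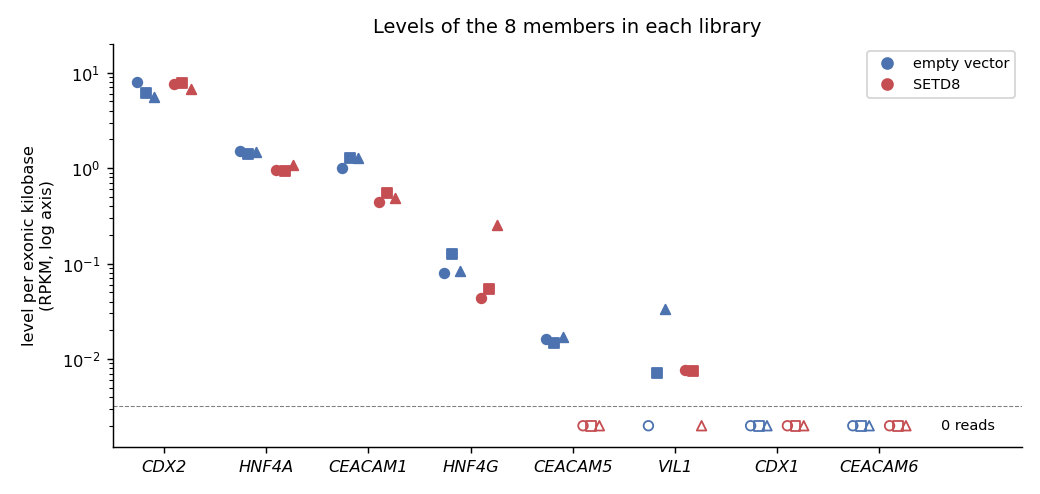
Level of each of the 8 members in each library, as CPM per kilobase of exon (RPKM, log axis), with blue for empty vector, red for SETD8, and circle, square and triangle for replicates 1, 2 and 3. Open symbols under the dashed line mark libraries with 0 reads; CDX2 stood highest at 5.63 to 7.95 in the vector libraries, and CDX1 and CEACAM6 had 0 reads in all 6 libraries.

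Per kilobase of annotated exon, CDX2 was the most abundant member, followed by HNF4A, CEACAM1 and HNF4G. In vector libraries CDX2 stood at 6.57 ± 1.22 RPKM, HNF4A at 1.47 ± 0.0579, CEACAM1 at 1.19 ± 0.168 and HNF4G at 0.096 ± 0.0249 RPKM (SD, n = 3 each). In SETD8 libraries the same genes stood at 7.36 ± 0.583, 0.993 ± 0.0771, 0.49 ± 0.0514 and 0.117 ± 0.119 RPKM (SD, n = 3 each). Within each group, no 2 neighbours in this order overlapped over their libraries. CEACAM5 (0.0149 to 0.0172 RPKM) and VIL1 (0 to 0.0333 RPKM) overlapped in the vector libraries. The length used is that of all annotated exons of a gene together, so a gene whose cells use only some exons has a level that is too low.

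Of the transcription factors, HNF4A fell from 10.7 ± 0.423 to 7.26 ± 0.564 CPM (SD, n = 3 each). HNF4A (ENSG00000101076) lies on the plus strand of chromosome 20 from 44355700 to 44434596 (GRCh38). Its level was 11.2, 10.3 and 10.7 CPM in vector replicates 1, 2 and 3, against 6.99, 6.88 and 7.91 CPM in the SETD8 replicates. All vector libraries lay above all SETD8 libraries, and vector replicate 1, which stood nearest to the SETD8 libraries on the first principal component, was the highest of the 6 for HNF4A. That is a log2 fold change of -0.57 with a 95% interval from -0.97 to -0.16 (SE 0.15; edgeR adjusted p = 0.035). Separation of all vector from all SETD8 libraries was seen for 30.3% of the genes tested, and for 15.9% with SETD8 lower. Of the 682 genes called lower, 319 had a log2 fold change of -0.57 or further below 0, HNF4A included. Leaving out vector replicate 2 ended the HNF4A call (edgeR adjusted p = 0.124), as did leaving out SETD8 replicate 1, 2 or 3 (0.143, 0.126 and 0.094), while the log2 fold change stayed between -0.63 and -0.53 whichever library was left out.

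RefSeq gives HNF4A an upstream and a downstream start, which in endoderm are used by different isoforms, and both are shown because a count per gene cannot say from which of them reads came. GENCODE places 5 of the 9 annotated transcripts at the upstream start and 4 at the downstream start, within 1000 bases of the windows below. Each line is the 250 bases before the start, 5′ to 3′ on the plus strand, from RefSeq's promoter table (GRCh38.p14), at chr20:44355449-44355698 and chr20:44400989-44401238.
HNF4A upstream start: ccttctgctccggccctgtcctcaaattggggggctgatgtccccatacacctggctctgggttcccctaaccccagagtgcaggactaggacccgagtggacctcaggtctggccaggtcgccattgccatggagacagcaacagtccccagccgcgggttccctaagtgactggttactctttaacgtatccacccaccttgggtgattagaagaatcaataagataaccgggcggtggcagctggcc
HNF4A downstream start: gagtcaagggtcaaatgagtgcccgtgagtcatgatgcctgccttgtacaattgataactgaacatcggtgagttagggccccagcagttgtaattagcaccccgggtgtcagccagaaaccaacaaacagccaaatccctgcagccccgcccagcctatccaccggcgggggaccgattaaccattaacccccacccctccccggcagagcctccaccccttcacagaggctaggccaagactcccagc
Searched on both strands for CAAAGTNCA (a form of the HNF4 site), TTTATNG (CDX), GGAATG (TEAD, the DNA-binding partners of YAP) and CACGTG (E-box), neither window held a match, so neither has capitals. In the same 250-base windows of 35116 RefSeq starts, CAAAGTNCA occurred in 0.94%, TTTATNG in 8.93%, GGAATG in 11.9% and CACGTG in 6.34%. The absence of these letters says nothing of binding elsewhere or of other forms of the sites.

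HNF4G, the paralog enriched in gut, was present at a few reads per library. Vector replicates 1, 2 and 3 held 7, 12 and 7 counts and SETD8 replicates 1, 2 and 3 held 4, 5 and 21 counts. SETD8 replicate 3 was the highest and SETD8 replicates 1 and 2 were the lowest, so the vector libraries lay inside the SETD8 range. The gene did not pass the low-count filter, and with no filter it did not pass the test (edgeR adjusted p = 0.861). The same libraries held 132 to 207 counts of HNF4A.

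CDX2 was the best-covered member, with 403 to 616 counts a library, and was not called. CDX2 (ENSG00000165556) lies on the minus strand of chromosome 13 from 27962137 to 27971139. Vector replicates 1, 2 and 3 stood at 32.8, 25.2 and 23.2 CPM, and the SETD8 replicates at 31.6, 31.9 and 27.6 CPM. Vector replicate 1 was the highest of the 6 libraries and the other vector libraries were the lowest, so the groups overlapped. Group means of 27.1 ± 5.03 and 30.3 ± 2.41 CPM (SD, n = 3 each) gave an edgeR adjusted p of 0.463 and a log2 fold change of 0.16 (SE 0.13). Its 95% interval, -0.21 to 0.54, reaches from a fall to a rise and does not show that CDX2 is equal in the groups. Without vector replicate 1 the log2 fold change was 0.32 (edgeR adjusted p = 0.059), and without vector replicate 3 it was 0.07 (edgeR adjusted p = 0.795). CDX2's own 250-base promoter window holds 1 match to the CDX letters TTTATNG on the strand opposite to the gene; on the gene's own strand it reads CAATAAA and begins 181 bases before the start. CDX1 had 0 counts in all 6 libraries. At these depths, 3 counts over a whole group stand at 0.0538 CPM in the vector and 0.0542 CPM in the SETD8 group, the level taken here as the limit that a count of 0 allows, for counting error only. The exact two-sided 95% Poisson limits for 0 counts are 0.0662 and 0.0666 CPM.

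**Figure D2:**
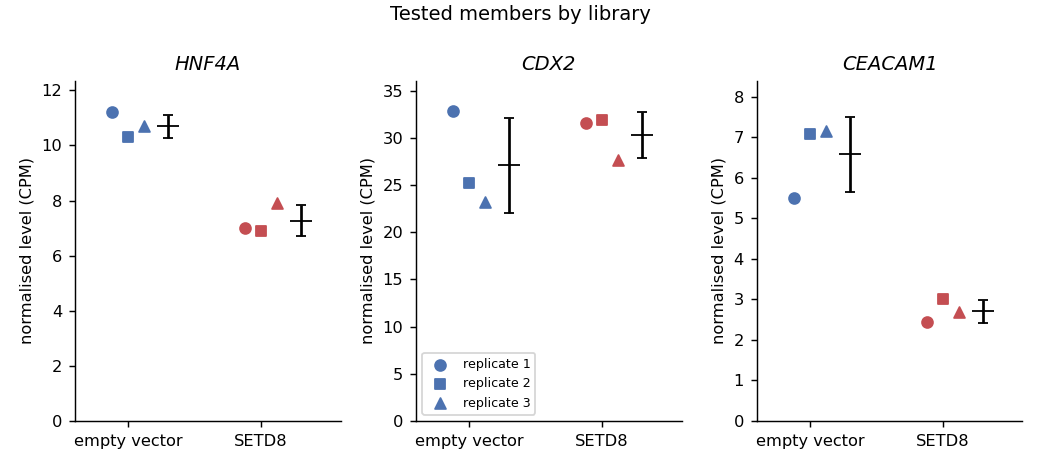
Normalised level (CPM) of HNF4A, CDX2 and CEACAM1 in each library, with circle, square and triangle for replicates 1, 2 and 3 and black bars for the mean ± SD of each group (n = 3). HNF4A and CEACAM1 separate the groups, with all SETD8 libraries at or below 7.91 and 3.00 CPM, whereas CDX2 overlaps because vector replicate 1 stood at 32.8 CPM.

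Of the adhesion molecules, CEACAM1 fell from 6.58 ± 0.93 to 2.70 ± 0.284 CPM (SD, n = 3 each). CEACAM1 (ENSG00000079385) lies on the minus strand of chromosome 19 from 42507304 to 42561234. In vector replicates 1, 2 and 3 it stood at 5.51, 7.09 and 7.15 CPM, and in the SETD8 replicates at 2.44, 3.00 and 2.68 CPM. The groups did not overlap, and vector replicate 1 was the vector library nearest to the SETD8 group. For CEACAM1 the fitted log2 fold change, -1.28 (SE 0.21) at an edgeR adjusted p of 0.0066, had a 95% interval from -1.85 to -0.71. Among the 682 genes called lower, 64 had a log2 fold change of -1.28 or further below 0, CEACAM1 included. CEACAM1 missed the threshold when vector replicate 2 (edgeR adjusted p = 0.0579) or SETD8 replicate 1 (0.0508) was left out. Without vector replicate 1 its log2 fold change was -1.40 (edgeR adjusted p = 1.75e-04).

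Few of the CEACAM1 bases are shared with other genes. Of the distinct 50-base stretches of its transcripts, 3.29% also occur in a transcript of another gene, mainly CEACAM3, CEACAM6, CEACAM8 and CEACAM5, which had at most 1 count in any library. The antisense gene LIPE-AS1 runs across CEACAM1 and shares 185 of its 5524 exonic bases. Whether counting used the strand is not stated. LIPE-AS1 had 38, 10 and 8 counts in vector replicates 1, 2 and 3 and 24, 23 and 26 in SETD8 replicates 1, 2 and 3, so its groups overlapped, and it did not pass the test (log2 fold change 0.39, edgeR adjusted p = 0.67). Its part in the CEACAM1 value was not tested.

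CEACAM5 and CEACAM6, the family members best known from colorectal tumours, were all but absent. CEACAM5 had 1 count in each of vector replicates 1, 2 and 3 and 0 in each SETD8 library, so no fold is given. CEACAM6 had 0 counts in all 6 libraries, with the same upper limits as CDX1. These genes are close copies: 16.3% of the 50-base stretches of CEACAM5 and 6.99% of those of CEACAM6 also occur in another gene, and the part of reads that matched several copies in these low counts was not tested.

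The promoters of the 3 CEACAM genes are related in sequence although their transcript levels differed, and they are printed for that comparison. Each is the 250 bases before the RefSeq start, 5′ to 3′ on the gene's strand (GRCh38.p14), at chr19:42528482-42528731 (minus strand) for CEACAM1, chr19:41708376-41708625 (plus strand) for CEACAM5 and chr19:41755280-41755529 (plus strand) for CEACAM6. The CEACAM1 window lies inside the span GENCODE gives the gene, since some annotated transcripts begin further upstream. Capitals mark GGAATG and CACGTG, the only searched letters found in them.
CEACAM1: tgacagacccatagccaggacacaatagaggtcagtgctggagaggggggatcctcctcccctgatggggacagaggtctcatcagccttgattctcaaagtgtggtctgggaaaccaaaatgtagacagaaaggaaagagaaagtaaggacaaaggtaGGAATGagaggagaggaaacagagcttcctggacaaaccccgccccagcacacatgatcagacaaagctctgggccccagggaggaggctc
CEACAM5: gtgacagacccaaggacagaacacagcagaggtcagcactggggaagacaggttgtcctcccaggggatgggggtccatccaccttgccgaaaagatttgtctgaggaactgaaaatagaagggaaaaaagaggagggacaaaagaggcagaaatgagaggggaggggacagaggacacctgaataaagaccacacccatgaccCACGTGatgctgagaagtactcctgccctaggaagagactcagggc
CEACAM6: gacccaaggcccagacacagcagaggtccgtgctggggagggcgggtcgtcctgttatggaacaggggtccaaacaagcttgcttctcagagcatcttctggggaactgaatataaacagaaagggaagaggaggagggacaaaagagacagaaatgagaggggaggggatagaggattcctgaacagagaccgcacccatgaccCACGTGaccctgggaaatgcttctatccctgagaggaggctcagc
In global alignments CEACAM1 was identical to CEACAM5 at 64.4% and to CEACAM6 at 67.6% of aligned columns, and CEACAM5 to CEACAM6 at 73.6%. The same alignment of CEACAM1 with the upstream and downstream HNF4A windows, which are not related genes, gave 46.3% and 45.6%. CEACAM5 and CEACAM6 shared the E-box letters CACGTG, 46 bases before the start in CEACAM5 and 45 in CEACAM6. The aligned letters in CEACAM1 were cacatg. CEACAM1 held GGAATG 91 bases before its start, where both others align with gaaatg. A match is a description of the letters, not a site of binding. Of all windows, 11.9% hold GGAATG and 6.34% hold CACGTG. Any link of these letters to the transcript levels was not tested.

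VIL1, the structural member of the set, had 0, 1 and 4 counts in vector replicates 1, 2 and 3 and 1, 1 and 0 in SETD8 replicates 1, 2 and 3. The ratio of SETD8 to vector was 0.403, with an exact binomial 95% interval of 0.0383 to 2.46 that covers counting error only, so no difference was detectable at this depth. The exons of VIL1 overlap 3045 exonic bases of USP37, a deubiquitinase gene on the other strand with 267 to 512 counts a library, and both VIL1 and USP37 were highest in vector replicate 3. The part of USP37 in those few VIL1 reads was not tested.

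Ratios between members within a library do not depend on how libraries are scaled; they were added after the levels had been seen. The ratio of HNF4A to CDX2 reads was 0.341, 0.409 and 0.462 in vector replicates 1, 2 and 3 and 0.221, 0.216 and 0.287 in SETD8 replicates 1, 2 and 3. That of CEACAM1 to CDX2 was 0.168, 0.281 and 0.308 in the vector libraries and 0.0772, 0.0942 and 0.097 in the SETD8 libraries. That of CEACAM1 to HNF4A was 0.493, 0.686 and 0.667 against 0.348, 0.436 and 0.338. None of the 3 ratios overlapped between the groups, and vector replicate 1 was the lowest vector library in each. On the log2 scale they changed by -0.74, -1.45 and -0.71, each with a two-sided exact permutation p = 0.1 (0.1 after Benjamini-Hochberg adjustment over the 3 pairs), the smallest that 3 against 3 allows. The 3 ratios share reads with each other and with the fits above, so they are not separate evidence.

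**Figure D3:**
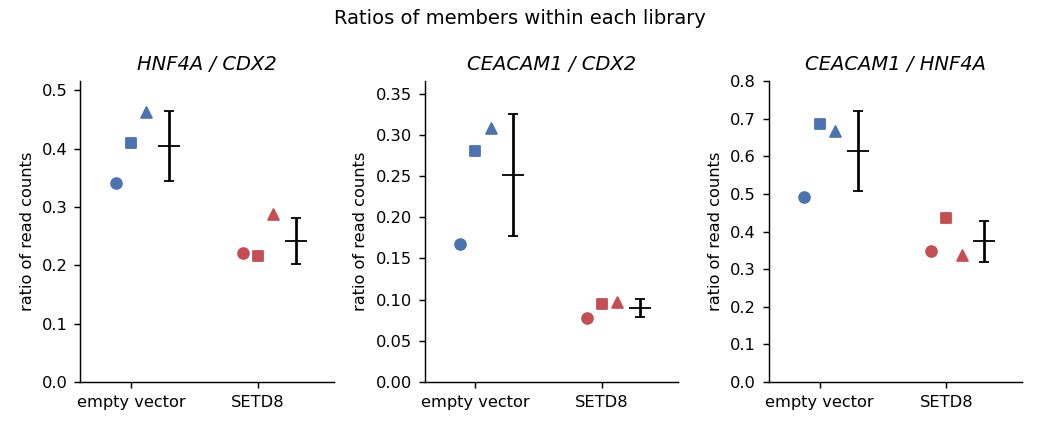
Ratio of read counts of 2 members within each library (HNF4A to CDX2, CEACAM1 to CDX2, CEACAM1 to HNF4A), with circle, square and triangle for replicates 1, 2 and 3 and black bars for the mean ± SD (n = 3). In each panel the 3 SETD8 libraries lie below the 3 vector libraries, for example at 0.0772 to 0.097 against 0.168 to 0.308 for CEACAM1 to CDX2.

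Genes near HNF4A and CDX2 on the chromosome were examined as well. Within 500 kb of HNF4A 11 genes were tested and 0 called (median 0.08), and within 500 kb of CDX2 4 were tested and 0 called (median 0.05). At an unadjusted p under 0.05, edgeR had 1 lower and 1 higher near HNF4A and 1 higher near CDX2, and DESeq2 and limma-voom called 0 near either. The keratin gene KRT18, at an unadjusted edgeR p of 0.0504, had an adjusted p of 0.193, so many genes lie under that threshold. The share of all tested genes under it was not counted, and unadjusted counts here and below are not read as a result. The pancreatic and duodenal homeobox gene PDX1, a neighbour of CDX2, had 2.13 ± 0.0541 and 2.02 ± 0.33 CPM.

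The genes whose log2 CPM followed HNF4A most closely over the 6 libraries were IRX4 (Pearson r = 0.994), CRACR2A (0.993) and CTPS1 (0.992), among 10572 genes with a mean of at least 5 CPM. Those closest to CEACAM1 were PLD6, EHD2 and BCAR3 (r = 0.996 each, among 10573 genes). CTPS1, which encodes a cytidine triphosphate synthase, fell from 109 ± 3.28 to 87.5 ± 5.62 CPM (edgeR adjusted p = 0.0427), and EHD2, a membrane-shaping ATPase gene, fell from 199 ± 11.2 to 152 ± 3.52 CPM (edgeR adjusted p = 0.0161). BCAR3 also fell (log2 fold change -0.32, edgeR adjusted p = 0.0357), while IRX4 (-0.25, edgeR adjusted p = 0.0947), CRACR2A (-0.32, 0.0638) and PLD6 (-0.30, 0.083) did not pass. These correlations describe 6 points that share the same libraries and the same split into groups. The genes were picked for following a member that separates the groups, so their lower SETD8 levels and p-values are not separate evidence.

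Many intestinal genes outside the 8 had few or no reads in either group. Of 12 colon epithelial markers, 7 were tested, and the general epithelial genes EPCAM (261 ± 12.9 and 262 ± 2.69 CPM in vector and SETD8) and KRT8 (6700 ± 910 and 6300 ± 337 CPM; SD, n = 3 each) were abundant. The intestine-restricted cadherin gene CDH17 and the glycoprotein gene GPA33 had at most 1 and 2 counts in any library, LGALS4 had 3 counts in 1 library, and KRT20 stood at 1.74 ± 0.367 and 1.24 ± 0.21 CPM. CDX1 was at 0. The cells thus carry epithelial keratins and CDX2, and lack most markers restricted to differentiated colonocytes. Markers of other cell types were low: summed levels were at most 0.318 CPM for hepatocytes, 0.477 for leukocytes, 2.54 for endothelium, 7.20 for fibroblasts and 6.34 for HEK293 cells, the last 2 mostly from COL1A1 and PAX2.

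Among 34 other endoderm and intestinal transcription factors, 21 were tested, with a median log2 fold change of 0.07 against 4.72e-04 over all genes tested. At an unadjusted p under 0.05, edgeR had 3 lower and 4 higher. DESeq2 called 1 of the list higher, and 739 over all genes. In the main edgeR test 1 fell and 0 rose, to be read beside 4.75% called lower and 3.08% higher over all genes tested. The fall was SOX9, a crypt progenitor factor gene, at 149 ± 16.8 against 110 ± 7.06 CPM (edgeR adjusted p = 0.0206, log2 fold change -0.44, SE 0.098). The pioneer factor gene FOXA1 (0.69, edgeR adjusted p = 0.116), the nuclear receptor gene ESRRA (0.36, 0.0723) and the ETS factor gene EHF (-0.22, 0.117) did not pass. FOXA2 and GATA4, endoderm factors of liver and proximal gut, had at most 2 counts in any library.

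Of 22 brush border genes tested (28 in the list, median -0.15), 3 were called lower, MYO7B among them, and 0 higher. Over all genes tested, 4.75% were called lower and 3.08% higher. At an unadjusted p under 0.05, edgeR had 8 lower and 0 higher. The share of all genes under that threshold was not counted, so these unadjusted counts are not read as a result. DESeq2 called 2 of the list lower and limma-voom 3, with 0 higher in either. Over all genes DESeq2 called 907 lower and 739 higher, and limma-voom 621 lower and 469 higher. EZR, which encodes ezrin, the linker of microvillar actin to the membrane, fell from 2550 ± 359 to 1830 ± 90.6 CPM (edgeR adjusted p = 0.0259). EPS8L2, of an actin-capping family, fell from 234 ± 14.7 to 185 ± 4.36 CPM (edgeR adjusted p = 0.0266). MYO7B, the motor gene of the intermicrovillar adhesion complex, fell from 0.713 ± 0.126 to 0.0867 ± 0.108 CPM at 11 to 17 counts in the vector and 0 to 4 in the SETD8 libraries (edgeR adjusted p = 0.0323). It passed the low-count filter only through the vector libraries, where it is high, so its call is no support for the list; it was not tested under the stricter filter and had no adjusted p in DESeq2. USH1C, its scaffold partner, had a log2 fold change of -0.33 and did not pass (edgeR adjusted p = 0.0705). Without vector replicate 1, 7 genes of this list were called lower and 1 higher, when 1738 were called lower and 1771 higher over all genes. The lower calls of this list numbered 0 without vector replicate 2 or any 1 of the SETD8 libraries.

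Of 30 enterocyte and absorptive genes 4 were tested and 0 called, with a median of -0.41; 9 had 0 counts in every library, the fatty acid binding protein gene FABP1 among them. At an unadjusted p under 0.05, 3 of the 4 were lower: the peptide transporter gene SLC15A1 (-0.52, edgeR adjusted p = 0.0943), the carbonic anhydrase gene CA2 (-0.31, 0.103) and the peptidase gene DPP4 (-0.65, 0.105). DESeq2 and limma-voom called 0 of them. The share of all genes under that unadjusted threshold was not counted, so this count is not read as a result. Of 17 goblet and secretory genes 5 were tested. The mucin gene MUC5B was lower at 14, 23 and 32 counts in vector replicates 1, 2 and 3 against 5, 10 and 5 in the SETD8 replicates (1.25 ± 0.548 against 0.358 ± 0.139 CPM, edgeR adjusted p = 0.0468), while MUC2 (-1.97, 0.0781) and MUC13 (-1.55, 0.129) did not pass. All 3 passed the low-count filter mainly through the vector libraries, so neither the call nor a median of this list is read as a result. MUC5B lost its call without any 1 library other than vector replicate 1, with limma-voom (adjusted p = 0.0612) and with a length correction (edgeR adjusted p = 0.0582), was not tested under the stricter filter and had no adjusted p in DESeq2.

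Genes with textbook links to the members were counted in 3 lists, to be read beside the 4.75% called lower over all genes. Of 25 liver and kidney genes linked to HNF4A, 5 were tested (median -0.25) and 1 was lower, SERPINA1, which encodes the protease inhibitor alpha-1 antitrypsin (29.5 ± 10.1 against 9.53 ± 0.952 CPM; edgeR adjusted p = 0.00511, log2 fold change -1.63, SE 0.23), and it lost its call without SETD8 replicate 1. F10 (-0.52) and F12 (0.24), coagulation factor genes, did not pass (edgeR adjusted p = 0.295 and 0.349), and 8 of the 25 had 0 counts throughout. Of 16 intestinal genes linked to CDX2, the members CDX1, CDX2 and VIL1 included, 5 were tested and 0 called (median -0.25); HEPH (-0.97, edgeR adjusted p = 0.125), a copper-dependent oxidase gene, and FUT2 (0.39, 0.154), a fucosyltransferase gene, had the smallest p, and both were under 0.05 unadjusted. DESeq2 and limma-voom also called 0 of this list. Of 11 genes for proteins associated with CEACAM1 or its signalling, 9 were tested (median -0.11) and 1 was lower, the receptor gene EGFR (from 163 ± 33.2 to 113 ± 7.62 CPM, edgeR adjusted p = 0.0266). The kinase gene SRC (-0.28, edgeR adjusted p = 0.054), the actin crosslinker gene FLNA (-0.29, 0.066) and PTPN6 (0.37, 0.0657), which encodes a phosphatase recruited by the CEACAM1 tail, did not pass, though DESeq2 called SRC (adjusted p = 0.0412) and FLNA (0.015) lower. Among the 9 other CEACAM genes, 7 had 0 counts throughout, CEACAM21 had 0 to 3 counts, and CEACAM19, a divergent member, was tested at 0.55 (edgeR adjusted p = 0.305). CDH1, the E-cadherin gene, was the 1 call among 7 tested genes of the epithelial list (median -0.09), falling from 117 ± 21.5 to 80.7 ± 5.43 CPM (edgeR adjusted p = 0.0218). Without SETD8 replicate 1, none of the 8 list genes called (CDH1, SOX9, EZR, EPS8L2, MYO7B, MUC5B, SERPINA1 and EGFR) kept its call, and over all genes 11 calls were left.

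**Figure D4:**
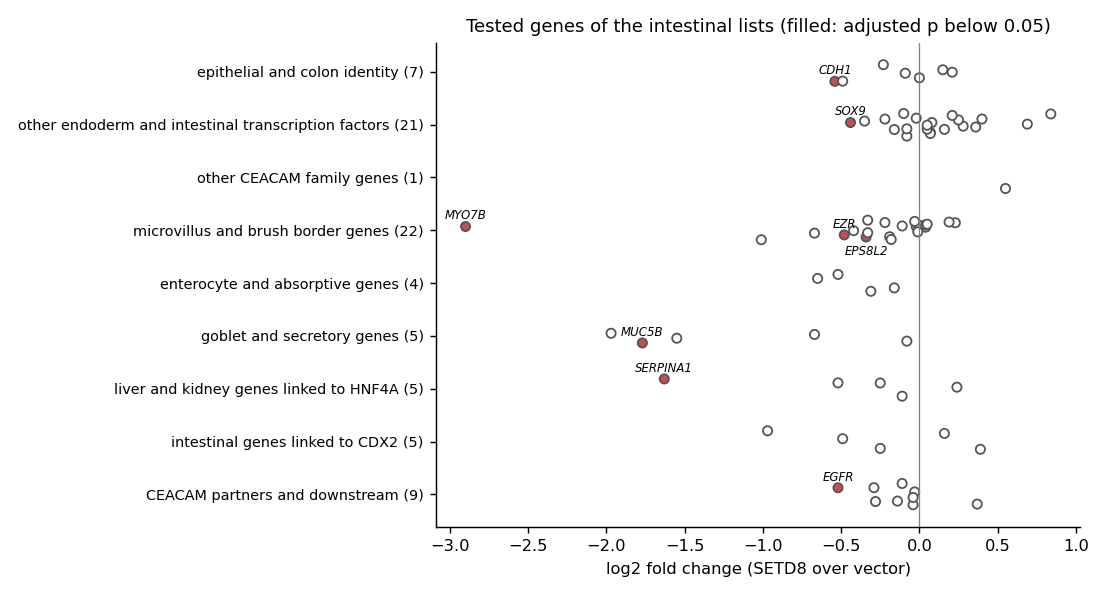
Log2 fold change (SETD8 over vector) of every tested gene of the 9 intestinal lists, 1 point a gene, with the number tested in parentheses. Filled and named points passed the test (adjusted p below 0.05), and these 8 all lie below 0, from -2.90 for MYO7B to -0.34 for EPS8L2. Over all genes tested, 4.75% were called lower and 3.08% higher. MYO7B and MUC5B passed the low-count filter only or mainly through the vector libraries, and none of the 8 kept its call without SETD8 replicate 1.

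The directions for HNF4A, CDX2 and CEACAM1 were the same under each of the 10 other settings and 6 left-out libraries, while the calls depended on single libraries. With all 6 libraries, HNF4A and CEACAM1 were called under each of the 10 settings (adjusted p 0.0207 to 0.0484 and 9.12e-06 to 0.0102), and CDX2 under 0 of them (0.318 to 0.535).

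**Figure D5:**
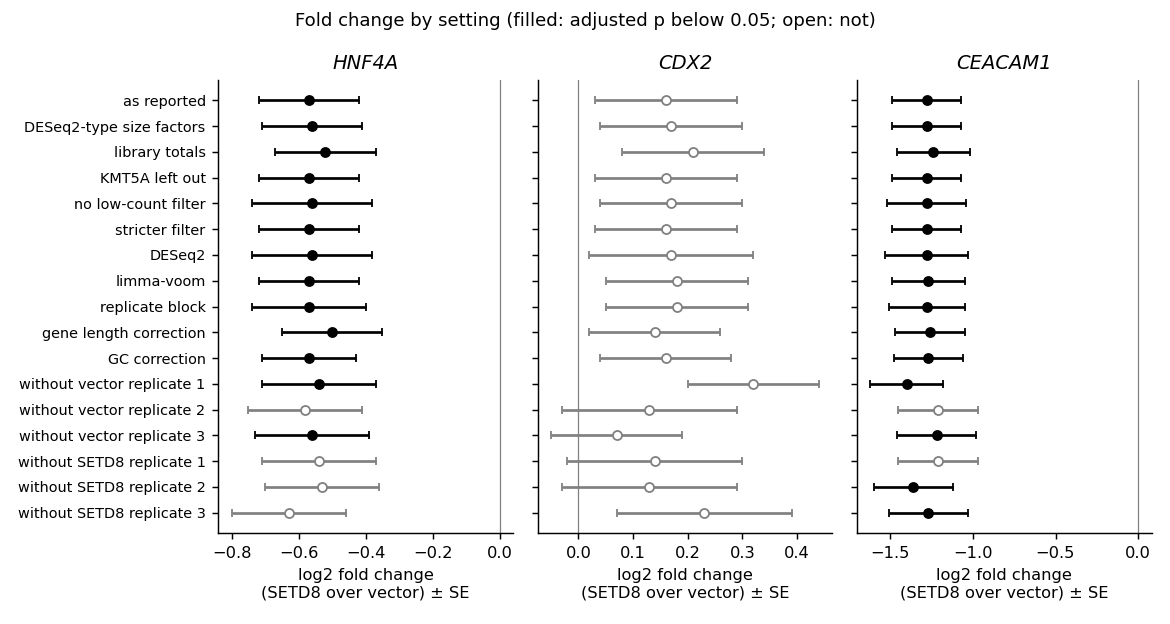
Log2 fold change ± SE of HNF4A, CDX2 and CEACAM1 as reported, under 10 other settings and with each library left out, each panel on its own linear axis with 0 marked. Filled points had an adjusted p below 0.05; HNF4A is filled in 2 and CEACAM1 in 4 of the 6 left-out fits, and CDX2 in none.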

How the data were processed

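Poly(A)-selected, strand-marking libraries of TRIzol-extracted RNA were sequenced from 3 vector and 3 SETD8 samples, per the labels' protocols. The authors deposited raw read counts per Ensembl gene, not normalized. Tools and builds named in the submitters' processing notes, without roles or versions, are GRCh38, hg38, featureCounts, HTSeq, HISAT2 and STAR. The annotation, the strand setting and the read length are not stated there. Columns named NC were taken as the vector group, the only group other than SETD8, with their number as the replicate. All 58735 IDs matched GENCODE 29, and 0 columns belonged to other samples.

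Genes were filtered with filterByExpr (14370 kept), scaled by TMM and tested with the robust quasi-likelihood method of edgeR 4.0.16 (R 4.3.3, limma 3.58.1) on group alone. Tests were two-sided, and p-values were adjusted by Benjamini-Hochberg over every tested gene. SE is the log2 fold change divided by the square root of F, and intervals use 4 residual degrees of freedom, which is wider than edgeR's own test. RPKM is CPM per kilobase of merged exons. Stretches of 50 bases were compared between all GENCODE transcripts. Promoters came from RefSeq (GRCh38.p14) and were aligned globally. Those of 5 of the 8 members were used, and entries on chromosome 8, where HNF4G lies, were left out. Figures used matplotlib 3.10.9.

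The members, lists and motifs were chosen with earlier results of these data known. Named genes are the members, up to 4 genes of each list by adjusted p, and the 3 genes most correlated with each called member. Others are marked or stand as absent or abundant markers. Alternatives were scaling by size factors or by library totals, omitting KMT5A, no filter, requiring 1 CPM throughout a group, limma-voom, DESeq2 1.42.0, a replicate block, length and GC corrections (lowess, span 0.3) and leaving out each library. The test was checked on simulated data. Genes near CEACAM1 and a few list genes are not reported here.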

Additional observations from a re-analysis of the deposited data

How the results depend on the processing

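The 2 lower and 0 higher calls among the members held under each of the 10 settings that kept all libraries. With a library left out the lower calls numbered 0 to 2 and the higher calls 0, and calls over all genes ranged from 11 (without SETD8 replicate 1) to 3509 (without vector replicate 1), being 72 when vector replicate 2 was left out, and 155 and 129 for SETD8 replicates 2 and 3, against 1125 with all libraries. With no low-count filter 2000 genes were called. Library totals gave 505 lower and 792 higher calls in place of 682 and 443, with a shift of 0.0426 in the median log2 fold change. DESeq2 called 739 genes higher, and 3 rather than 1 of the CEACAM1-associated genes lower.

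With the replicate block 1177 genes were called, HNF4A had an adjusted p of 0.0484 and CEACAM1 of 0.00352, and no member's call changed. Goblet genes called lower went from 1 to 2. Deviations of same-numbered libraries from their group means had correlations of 0.0247, 0.00778 and -0.0637 for replicates 1, 2 and 3. Not every library correlated best with its own number. These values show no sign of pairing, but 3 libraries a group cannot exclude it. Whether same-numbered libraries share a culture or batch was not tested.

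Of the 8 list genes called, omission of vector replicate 1, 2 or 3 ended 0, 7 and 2 calls, and omission of SETD8 replicate 1, 2 or 3 ended 8, 7 and 7, with edgeR adjusted p up to 0.177. Other list counts moved by at most 2 under the settings that kept all libraries. Depth limits HNF4G, VIL1, CEACAM5, CDX1 and CEACAM6, which had 0 to 21 counts a library.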
